A study of Mus musculus with 6 samples.

Results

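Metalloproteases that shed cell-surface proteins and cut the extracellular matrix were followed through the circular RNA (circRNA) tables of the mouse aorta. The members are the host genes whose symbol begins with Adam, Adamts, Adamtsl or Mmp followed by a number. This rule found 27 of 7051 host genes, with 79 of 20532 listed circRNAs: 7 Adam genes (19 circRNAs), 12 Adamts genes (41), 3 Adamtsl genes (12) and 5 Mmp genes (7). Back-splicing closes a circRNA into a ring, and reads that span the closing join are called junction reads.

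ADAM proteins are membrane-anchored proteases that release the outer parts of receptors, growth factors and cytokines. ADAMTS proteins are secreted relatives with thrombospondin repeats that mature procollagens and cut proteoglycans, and ADAMTS-like proteins keep the repeats but lack the protease domain. Matrix metalloproteases (MMPs) cut collagens, laminins and other matrix proteins, some of them from the cell membrane. In the arterial wall these enzymes are known for their part in smooth muscle migration, elastic fibre upkeep and plaque stability.

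The aortae came from 3 groups with 2 libraries each. Wild-type C57BL/6J mice, and mice of strain C57BL/6 lacking apolipoprotein E (ApoE-/-), which clear cholesterol-rich lipoproteins poorly, were kept on chow. Further ApoE-/- mice were given a high-fat diet from 3 months of age for 3 months, the regimen the study uses for atherosclerosis. The age of the chow groups, the number of animals per library and the sex are not given in the sources used here, and whole aorta holds several cell types, so fewer cells of a type and less RNA per cell cannot be told apart. No source ties the replicates to separate animals, so p-values reflect only how far these samples spread, which may be technical.

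Each library held between 69130844 and 77352690 reads, of which 3706 to 34805 were junction reads. The library labelled C57BL/6J 2 had the fewest junction reads (3706, against 26605 in C57BL/6J 1). Interval reads, defined further on, were also fewest there (775094, against 1655186 in C57BL/6J 1). The columns of the library labelled ApoE-/- chow 1 carry the name of a C57BL/6J sample; the label was kept, and without that library 0 members were called in any comparison or measure (edgeR). Apoe itself, listed with 1 short interval, stood at 167 and 115 CPM (interval reads per 1000000 after TMM scaling) in the C57BL/6J libraries, 88.4 and 64.2 in those labelled ApoE-/- chow and 48.0 and 61.4 in the high-fat ones. Whether that interval lies in the deleted part of the gene is not given, so the level does not check the labels. Of 10 smooth muscle markers 8 were listed, and their summed level ran from 4673 interval reads per 1000000 in C57BL/6J 2 to 24257 in high-fat 2, with 19845 in C57BL/6J 1. Of 12 macrophage and myeloid markers 5 were listed, summing to between 147 and 318 per 1000000 in the 4 chow libraries and to 594 and 711 in high-fat 1 and 2. Of the 5, 3 were higher and 2 (Mrc1 and Cd36) lower in high-fat against both chow groups, and of these Gpnmb alone passed (log2 2.50 ± 0.42 SE; edgeR, adjusted p = 0.00365). Against ApoE-/- chow alone Gpnmb did not pass (edgeR, adjusted p = 0.999). All 8 endothelial markers were listed (230 to 326 per 1000000), and 6 of 8 fibroblast markers (1802 to 4101). Adipocyte markers (7 of 9) summed to 503 to 1063, striated muscle markers (4 of 9) to 167 to 260, and the 1 of 8 lymphocyte markers listed to 2.98 to 7.39 per 1000000. Blood cell markers (3 of 7) summed to between 14.5 and 22.8 in the 4 chow libraries and to 51.7 and 87.6 in high-fat 1 and 2. Of the 2 tested, 1 was higher and 1 lower in high-fat against both chow groups. The higher one, Ppbp, passed (log2 2.70 ± 0.44 SE; edgeR, adjusted p = 0.00255). Against ApoE-/- chow or C57BL/6J alone Ppbp did not pass (edgeR, adjusted p = 0.0755 and 0.130).

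Junction reads of the metalloprotease hosts were few. They numbered 87 and 8 in libraries 1 and 2 of C57BL/6J, 29 and 63 in those of ApoE-/- chow, and 142 and 35 in those of the high-fat diet, 364 in all. As a share of each library's junction reads this was 0.327% and 0.216%, 0.199% and 0.434%, and 0.408% and 0.212% in the same order. The share was high in 1 library and low in the other of each group, and all 3 groups overlapped. The exact 95% binomial interval of C57BL/6J 2 ran from 0.0932% to 0.425% and took in the value of 4 of the other 5 libraries. Binomial intervals and their upper ends here cover counting error only.

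Most joins were seen in a single library, as for circRNAs in general. Of the 79, 60 (75.9%) had a junction read in exactly 1 library, against 80.5% of all circRNAs, and 8 (10.1%, against 9.40%) were seen in 3 or more libraries. None was seen in all 6 libraries, where 189 circRNAs of the series were. The intervals were longer than usual: their median span was 4229 bp against 1822.5 bp over all circRNAs, and 21 of 79 (26.6%, against 10.1%) covered 20000 bp or more. Most of these long intervals belonged to Adamts6, Adamtsl3 and Adamts9, the hosts with 11, 8 and 7 circRNAs. All 79 lay inside the bounds of their gene in the RefSeq table of GRCm38.p6.

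The other measure is the interval count, the reads assigned to the stretch between a circRNA's ends, less its junction reads. It mixes linear, intronic and circular RNA, is not the expression of a whole gene, and without strand can include an overlapping gene, as 12 of the 79 intervals touch another annotated gene. Values are given per 1000000 interval reads after TMM scaling (CPM). The TMM factors were 0.652 in C57BL/6J 1 and 1.70 in C57BL/6J 2, and from 0.803 to 1.23 in the other libraries. Of the 27 hosts 25 had at least 10 interval reads in at least 2 libraries and were tested; Adamts18 and Mmp20 were not. The 27 hosts together stood at 1501 and 1922 CPM in the C57BL/6J pair, 1604 and 1808 in the ApoE-/- chow pair and 1629 and 1812 in the high-fat pair. These sums overlapped between all groups, and Adamts2 and Adamtsl3 made up 55.1% of them. Before scaling, the C57BL/6J pair had 1582 and 2339 member reads, of 1655186 and 775094 interval reads, so its sums depend on the scaling.

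**Figure D1:**
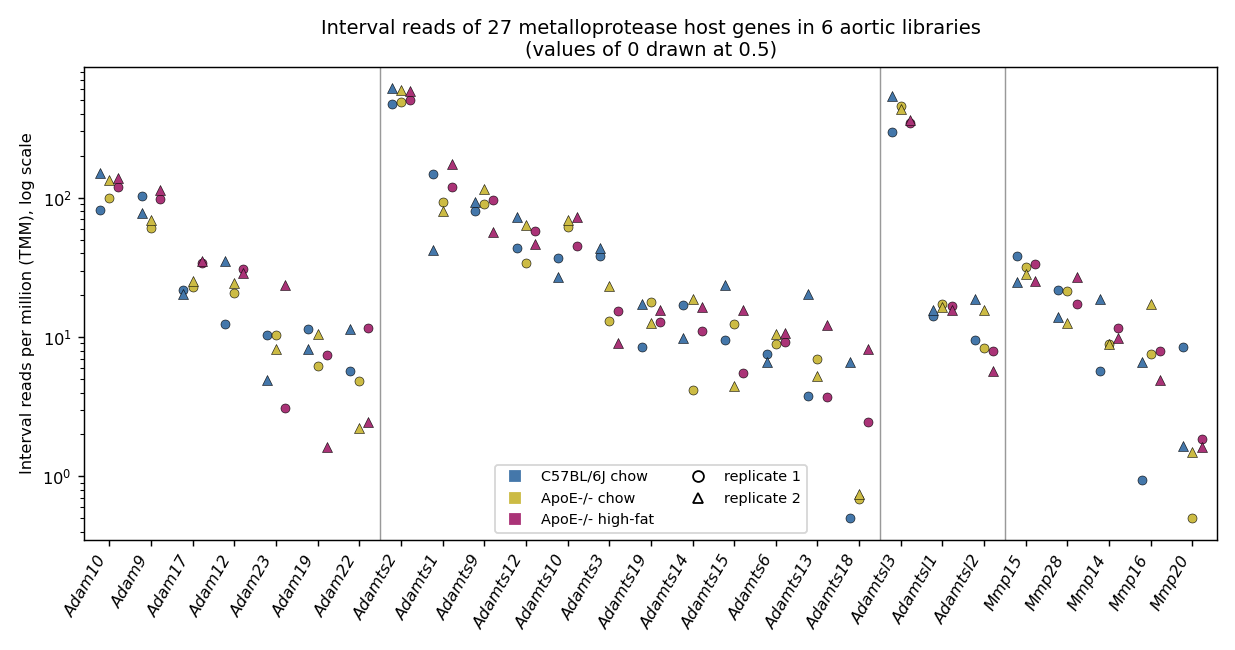
Interval reads per 1000000 (vertical, log scale) of the 27 hosts in the 6 libraries, grouped by family and ordered by mean level; colours are groups and marker shapes are replicates. Adamts2 and Adamtsl3 lie at 294 CPM or more in every library, and in most hosts the colours intermix.

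No member passed in any comparison with all 6 libraries. With edgeR's quasi-likelihood test, 0 of 25 were called for high-fat against ApoE-/- chow, where 0% of 6122 host genes were called, and 0 of 25 against C57BL/6J, where 0.0163% were. Likewise 0 of 25 were called for ApoE-/- chow against C57BL/6J (0% of all hosts), and 0 of 25 for high-fat against both chow groups (0.049% of all hosts). At an unadjusted p under 0.05 (edgeR) there were 0, 1, 2 and 1 of the 25 members in these comparisons. Of all 6122 hosts there were 125, 215, 160 and 177. DESeq2 also called 0 members in each comparison. The members' median log2 fold change was 0.10 for high-fat against ApoE-/- chow, where the median of all hosts was 0.03, with 15 hosts higher and 10 lower. Against C57BL/6J it was 0.03 (all hosts -0.02) in high-fat aortae, with 14 higher and 11 lower, and -0.06 (all hosts -0.02) in ApoE-/- chow aortae, with 10 higher and 15 lower.

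**Figure D2:**
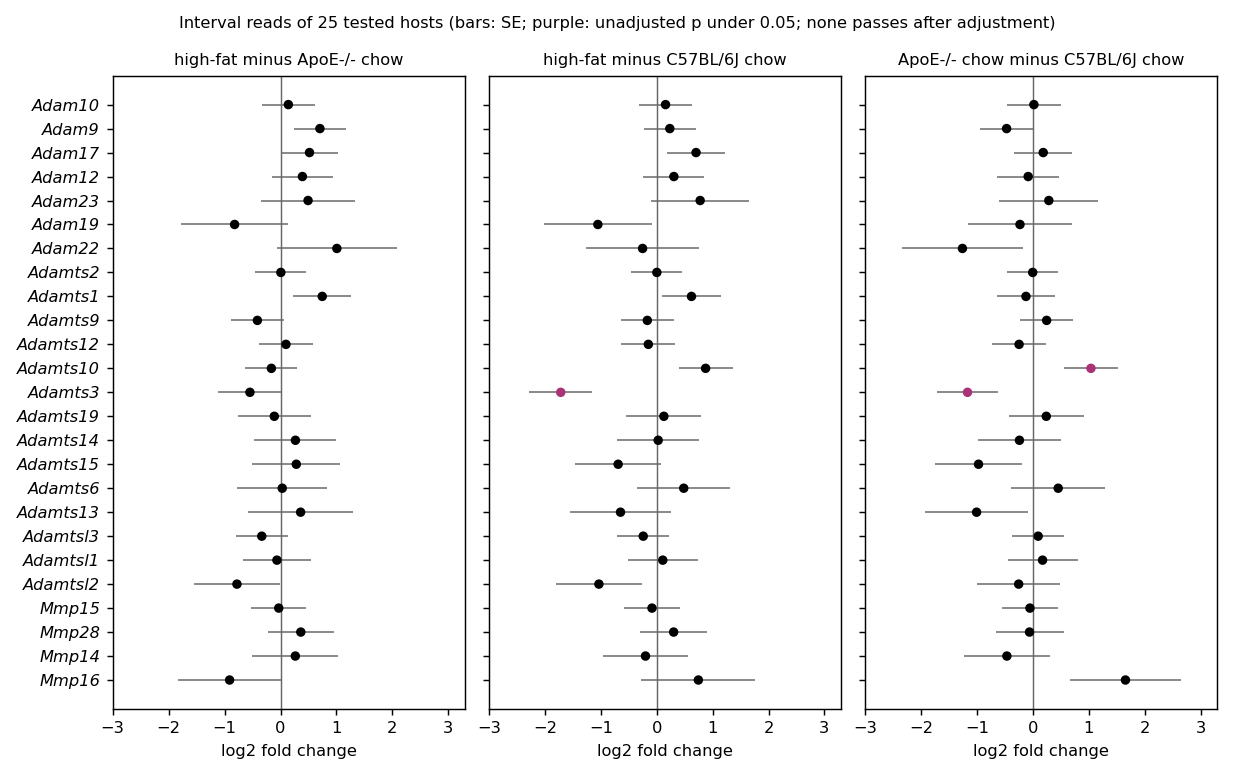
Log2 fold change of interval reads (horizontal) with its standard error for the 25 tested hosts in the 3 pairwise comparisons. Purple points have an unadjusted p under 0.05: Adamts3 in both comparisons with C57BL/6J, and Adamts10 in ApoE-/- chow against C57BL/6J.

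Hosts whose libraries did not overlap between groups were counted next. In high-fat against C57BL/6J, 3 of 25 members (12%) had both high-fat libraries higher, against 13.8% of 6122 hosts, and 3 had both lower, against 14.6%. In high-fat against ApoE-/- chow it was 5 members (20%, against 16.2%) higher and 2 (8%, against 15.9%) lower. In ApoE-/- chow against C57BL/6J it was 5 (20%, against 12.3%) higher and 3 (12%, against 13%) lower. Against all chow libraries 1 member (4%) was lower, Adamtsl2, where 5.1% of hosts were.

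Among the membrane sheddases, Adam17 (the tumour necrosis factor converting enzyme) was the host whose high-fat libraries both stood above all 4 chow libraries. It had 21.8 and 20.5 CPM in the C57BL/6J pair, 22.8 and 25.4 in the ApoE-/- chow pair and 33.9 and 35.2 in the high-fat pair. The 2 replicates of each group were close together and the groups with and without the high-fat diet did not overlap. It was the only member of 25 (4%) with this pattern upward, a share near the 5.28% of all hosts that show it. In the test, the log2 fold change was 0.61 ± 0.43 (SE) against both chow groups and did not pass (edgeR, adjusted p = 1.00). Against ApoE-/- chow alone it was 0.52 ± 0.50 and against C57BL/6J 0.70 ± 0.51 (SE; edgeR, adjusted p = 0.999 and 1.00). Of its 3 intervals with reads of their own, the 6109 bp interval at chr12:21328045-21334153 carried the pattern, with 9.49 and 7.39 CPM in the C57BL/6J pair, 6.91 and 14.9 in the ApoE-/- chow pair and 16.0 and 18.01 in the high-fat pair. In each of the other 2 intervals a chow library reached the high-fat range. The macrophage and blood cell sums given above were likewise higher in both high-fat libraries, as was the fibroblast sum (3294 and 4101, against at most 3255 in chow). Their part in the Adam17 level was not tested.

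The junction reads of Adam17 did not follow its interval reads. They numbered 14 and 0 in the C57BL/6J pair, 1 and 0 in the ApoE-/- chow pair and 6 and 2 in the high-fat pair. C57BL/6J 1 held the most, 10 of them on a single join at chr12:21329054-21332210 that no other library showed. A second join from the same first base, chr12:21329054-21332673, had 2 reads, both in high-fat 1. By junction reads the log2 fold change was 0.49 ± 1.56 for high-fat against both chow groups and -3.06 ± 2.22 for ApoE-/- chow against C57BL/6J (SE; edgeR, adjusted p = 0.995 and 1.00).

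Adam10, the main alpha-secretase and a sheddase of Notch receptors, was the most abundant Adam host by interval reads. It stood at 81.6 and 150 CPM in the C57BL/6J pair, 100 and 135 in the ApoE-/- chow pair and 120 and 139 in the high-fat pair, and all groups overlapped. By junction reads it had 4 and 0 in the C57BL/6J pair, 1 and 4 in the ApoE-/- chow pair and 23 and 8 in the high-fat pair. Per 100000 junction reads of the library that was 15.03 and 0, 6.86 and 27.6, and 66.1 and 48.5, so both high-fat libraries were above the 4 chow libraries. The difference did not pass: log2 2.08 ± 1.36 (SE) against both chow groups (edgeR, adjusted p = 0.995), 1.79 ± 1.65 against ApoE-/- chow and 2.37 ± 1.77 against C57BL/6J (edgeR, adjusted p = 1.00 and 0.999). Of all 1262 hosts tested by junction reads, 65.7% were higher in high-fat against both chow groups, with a median log2 of 0.38. How many hosts were separated in this way by junction reads was not counted. The 0 reads of C57BL/6J 2 allow a share of up to 0.0809% of its junction reads, above the 0.0661% of high-fat 1, so a difference from that library was not detectable at this depth.

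Most of these reads came from 1 join of Adam10, chr9:70703287-70722771, a span of 19485 bp inside the gene (chr9:70678944-70780229). Its reads, in the order used above, were 4 and 0, 1 and 3, and 18 and 6, or 32 of the 40 reads of the host, in 5 libraries. Its first base was shared with 2 further joins, which had 4 reads between them. Interval reads assigned to it numbered 5 and 1, 7 and 1, and 21 and 17, so both measures of this join were highest in the high-fat libraries. No other listed interval covers 3995 bp of it, but whether these reads lie there was not tested. A further listed interval, chr9:70703287-70706980, starts at the same base and lies wholly under others. It still had 35 and 63, 29 and 45, and 44 and 28 interval reads, with C57BL/6J 2 the highest. The 19485 bp circRNA had the smallest unadjusted p of the 4 member circRNAs that could be tested on their own (log2 1.95 ± 1.52 SE against both chow groups; edgeR, adjusted p = 0.961). In that comparison 0 of the 4 and 0.0985% of 1015 circRNAs were called.

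Adam9, a widely expressed sheddase, was at 102 and 78.1 CPM in the C57BL/6J pair, 60.8 and 69.4 in the ApoE-/- chow pair and 98.6 and 114 in the high-fat pair. Both high-fat libraries were above both ApoE-/- chow libraries but C57BL/6J 1 lay between the high-fat libraries. The log2 fold change of high-fat against ApoE-/- chow was 0.70 ± 0.47 (SE; edgeR, adjusted p = 0.999), the smallest unadjusted p of a member in that comparison (0.142). Against both chow groups it was 0.47 ± 0.40 (SE; edgeR, adjusted p = 1.00). Its 32 junction reads numbered 8 and 0, 4 and 2, and 18 and 0, of which 30 lay on the join chr8:24978428-24982122. High-fat 1 was the highest library and high-fat 2 had none. Its log2 fold change of junction reads was 0.51 ± 1.37 for high-fat against both chow groups (SE; edgeR, adjusted p = 0.995).

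Adam12, a meltrin of mesenchymal cells, stood at 12.3 and 35.3 CPM in the C57BL/6J pair, 20.7 and 24.6 in the ApoE-/- chow pair and 30.8 and 28.6 in the high-fat pair, with C57BL/6J 2 the highest. Adam19, a further meltrin, was low throughout and lowest in high-fat 2 (11.4 and 8.22, 6.22 and 10.4, and 7.39 and 1.64 CPM). Adam22 and Adam23 are catalytically inactive members known from neurons. Adam22 had a log2 fold change of -1.26 ± 1.08 (SE) in ApoE-/- chow against C57BL/6J, from 7 and 3 reads against 6 and 14 (edgeR, adjusted p = 1.00). Of the settings that left out 1 library, 4 kept it in the test, with values from -1.90 (without ApoE-/- chow 1) to -0.83 (without ApoE-/- chow 2). Adam23 ranged from 3.08 CPM in high-fat 1 to 23.7 in high-fat 2, so its highest and lowest libraries were of the same group. These 4 hosts had 1 to 5 junction reads each.

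The procollagen N-proteinases, which trim the amino end of fibrillar procollagens, are Adamts2, Adamts3 and Adamts14. Adamts2 was the most abundant of all members. It had 69.6% of its interval reads on the 28586 bp interval chr11:50708783-50737368, which also overlaps the annotated gene Gm39819. It stood at 469 and 612 CPM in the C57BL/6J pair, 483 and 595 in the ApoE-/- chow pair and 503 and 579 in the high-fat pair, with group means of 540 ± 101, 539 ± 79.6 and 541 ± 53.9 (SD, n = 2). Those means lay far closer together than the replicates of any group. Per kilobase of interval not shared with another listed interval it was at 9.80 CPM, the 13th of 27 members; Adamtsl2 led on that scale with 58.9. Exon content could not be taken into account, since no exon annotation was used. Adamts2 was also the only member with junction reads in all 6 libraries (3 and 2, 2 and 4, and 2 and 2), 0.352 per 100 interval reads, where the median of all tested hosts was 2.38. Its join seen in most libraries, chr11:50737166-50756779, had 3 and 2 reads in C57BL/6J, 0 in the ApoE-/- chow pair and 0 and 2 in the high-fat pair.

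Adamts3, which also processes the lymphatic growth factor VEGF-C, had the smallest unadjusted p of the members. It had 40 and 53 interval reads in the C57BL/6J pair, 19 and 31 in the ApoE-/- chow pair and 25 and 11 in the high-fat pair, or 37.9 and 43.5, 13.1 and 23.1, and 15.4 and 9.003 CPM. Both wild-type libraries stood above all 4 ApoE-/- libraries. Against C57BL/6J, 14.6% of all hosts had both high-fat libraries lower and 13% had both ApoE-/- chow libraries lower. The share with both at once was not counted. The log2 fold change of high-fat against C57BL/6J was -1.72 ± 0.56 (SE; edgeR, unadjusted p = 0.00472, adjusted p = 1.00). For ApoE-/- chow against C57BL/6J it was -1.17 ± 0.55 (SE; edgeR, unadjusted p = 0.0408, adjusted p = 1.00), and high-fat against both chow groups gave -1.13 ± 0.51 (SE; edgeR, adjusted p = 1.00). Without the library labelled ApoE-/- chow 1 these last 2 values were -0.81 and -1.31. The reads come from 3 short intervals of 216, 407 and 159 bp, 0.782 kb together. In the 216 bp interval (chr5:89711723-89711938) the groups were in a graded order, with 16 and 24 reads in the C57BL/6J pair, 13 and 9 in the ApoE-/- chow pair and 4 and 2 in the high-fat pair. In the 407 bp interval, which had 14 and 15, 6 and 15, and 9 and 7 reads, ApoE-/- chow 2 reached the wild-type count. After scaling, ApoE-/- chow 2 (11.2 CPM) stood under both C57BL/6J libraries there (13.3 and 12.3). In the 159 bp interval, with 10 and 14, 0 and 7, and 12 and 2 reads, high-fat 1 lay between the wild-type counts. After scaling, high-fat 1 (7.39 CPM) stood under both C57BL/6J libraries (9.49 and 11.5) and above both ApoE-/- chow libraries (0 and 5.22). Adamts14 varied without order, from 4.14 CPM in ApoE-/- chow 1 to 18.7 in ApoE-/- chow 2, and 8 of its 10 junction reads were in C57BL/6J 1.

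**Figure D3:**
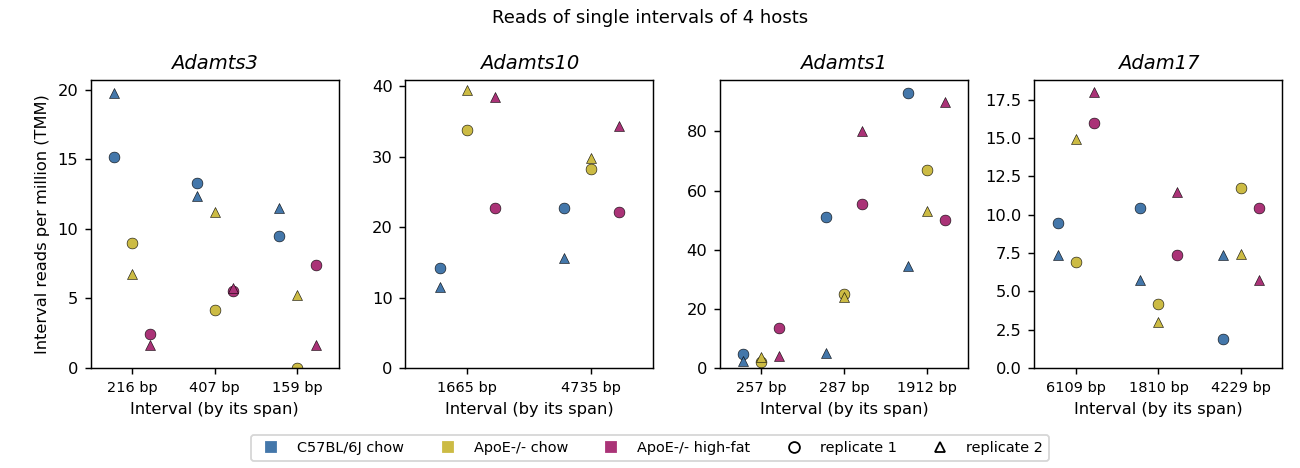
Interval reads per 1000000 (vertical, from 0) of the single intervals of Adamts3, Adamts10, Adamts1 and Adam17, each labelled by its span; colours are groups and shapes are replicates. Both high-fat libraries lie lowest in the 216 bp interval of Adamts3, and C57BL/6J 2 lies lowest in the 287 bp interval of Adamts1.

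Adamts6 and Adamts10 form a pair of closely related proteases of fibrillin microfibrils. Adamts10 was at 37.0 and 27.1 CPM in the C57BL/6J pair, 62.2 and 69.4 in the ApoE-/- chow pair and 45.0 and 72.8 in the high-fat pair, so all 4 ApoE-/- libraries were above both wild-type ones. Of all hosts, 12.3% had both ApoE-/- chow libraries above both wild-type ones and 13.8% had both high-fat libraries above them. The share with both at once was not counted. On the log2 scale the fold change of Adamts10 was 1.04 ± 0.48 (SE) in ApoE-/- chow (edgeR, unadjusted p = 0.0389, adjusted p = 1.00) and 0.87 ± 0.48 (SE) in high-fat aortae (edgeR, adjusted p = 1.00). Without the library labelled ApoE-/- chow 1 the former was 1.12. Its 1665 bp interval (chr17:33530133-33531797) had 15 and 14 reads in the C57BL/6J pair, 49 and 53 in the ApoE-/- chow pair and 37 and 47 in the high-fat pair. Its 4735 bp interval (chr17:33538571-33543305) had 24 and 19, 41 and 40, and 36 and 42. Raw reads of both intervals were lower in each wild-type library than in each ApoE-/- library; after scaling, high-fat 1 (22.2 CPM) stood just under C57BL/6J 1 (22.8) in the longer one. The 1665 bp circRNA had 4 and 0, 0 and 1, and 1 and 0 junction reads, which did not follow the interval. Genotype cannot be told apart from a difference in age, since the ages of the chow groups are not given.

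Adamts6 was the leading circRNA host of the family. It had 31 and 0 junction reads in the C57BL/6J pair, 10 and 29 in the ApoE-/- chow pair and 21 and 5 in the high-fat pair, 96 in all and 26.4% of the members' total. Only 2.85% of all host genes had as many. Per 100000 junction reads the values were 117 and 0, 68.6 and 200, and 60.3 and 30.3, with both high-fat libraries below both ApoE-/- chow libraries. How many hosts were separated in this way by junction reads was not counted. The log2 fold change of Adamts6 was -1.43 ± 1.13 (SE; edgeR, adjusted p = 1.00), where the median of all hosts tested was 0.19. Against C57BL/6J the Adamts6 value was 0.86 ± 1.13 for ApoE-/- chow aortae and -0.57 ± 1.13 for those of the high-fat diet (SE; edgeR, adjusted p = 1.00 and 0.999). Of the 5 hosts tested by junction reads 0 were called in any comparison, and 0 had an unadjusted p under 0.05 (edgeR); DESeq2 also called 0. Of all 1262 hosts tested, 0.0792% were called for high-fat against ApoE-/- chow, 0% in each comparison with C57BL/6J and 0.158% for high-fat against both chow groups.

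The Adamts6 reads were spread over 11 joins that reuse the same ends. The 5 start positions and 4 end positions recombined: chr13:104400006 closed 4 joins with 50 reads, chr13:104429870 closed 3 with 33, and chr13:104413810 closed 3 with 10. The join found in 5 libraries, chr13:104426935-104429870 (2936 bp), had 9 and 0, 5 and 2, and 8 and 2 reads. The join chr13:104375642-104400006 (24365 bp) had 8 and 0, 0 and 12, and 5 and 0, and chr13:104366794-104400006 had 3 and 0, 2 and 2, and 0 and 0. Start positions 104390078 and 104390082 lie 4 bp apart; the former had 2, 0, 0, 6, 6 and 2 reads in the 6 libraries and the latter 9, 0, 0, 0, 0 and 1. Most of these reads were on the latter in C57BL/6J 1, all 9 of them on 1 join, and all were on the former in ApoE-/- chow 2 and high-fat 1. The counts are small, and whether the 2 positions are separate splice sites was not tested. Adamts6 had only 71 interval reads (6.57 to 10.6 CPM), all from the 1 interval that does not lie wholly under others. Among all members 24 intervals lie wholly under others, and 23 of these had no interval reads. Its 135 junction reads per 100 interval reads can therefore not be read as a ratio of circular to linear RNA.

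**Figure D4:**
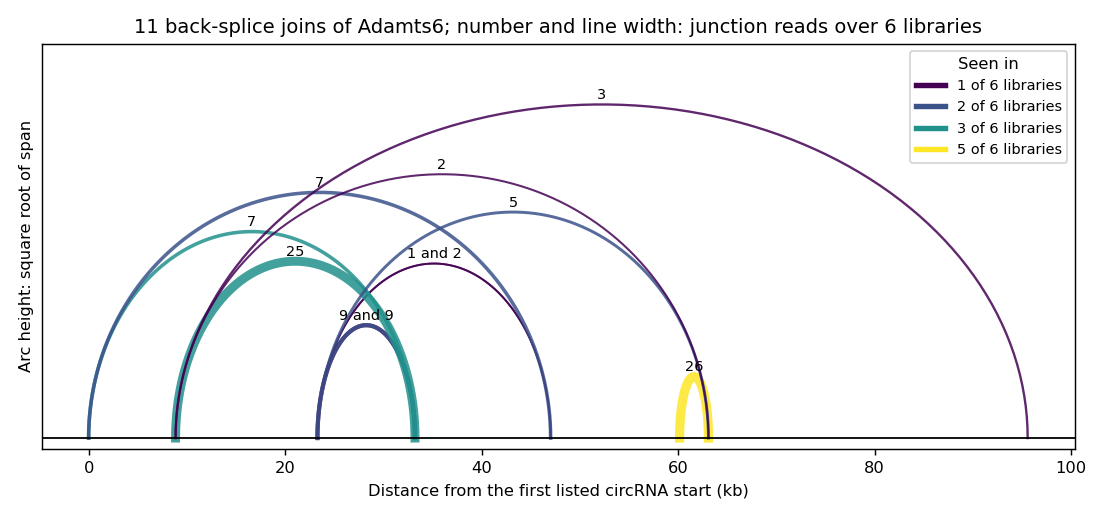
The 11 back-splice joins of Adamts6 as arcs from start to end (horizontal: kb from the leftmost start), labelled with junction reads over the 6 libraries and coloured by the number of libraries; arcs 4 bp apart at the start overlie each other and carry both counts. The 2936 bp join at the right, seen in 5 libraries, has 26 reads, and 25 reads fall on the 24365 bp join.

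Adamts1, a secreted protease of versican, stood at 149 and 41.9 CPM in the C57BL/6J pair, 93.9 and 80.6 in the ApoE-/- chow pair and 119 and 174 in the high-fat pair. Both high-fat libraries were above both ApoE-/- chow libraries, and the wild-type pair held the lowest and the next to highest of the 6 libraries. In the test, the log2 fold change was 0.75 ± 0.52 (SE) against ApoE-/- chow, 0.62 ± 0.52 against C57BL/6J and 0.68 ± 0.44 against both chow groups (edgeR, adjusted p = 0.999, 1.00 and 1.00). Without C57BL/6J 1, which left a single library in that group, the log2 values were 1.78 against C57BL/6J and 1.25 against both chow groups. Without C57BL/6J 2 they were -0.03 and 0.35. Adamts1 passed only in the first of these settings. More hosts of the whole series were called there than with all 6 libraries, so the call was not particular to Adamts1. Under all alternatives but the first, no adjusted p of these 2 comparisons was under 0.995 (edgeR, DESeq2). The smooth muscle sum of C57BL/6J 2 given above was 4673 against 19845 in C57BL/6J 1; its part in the Adamts1 value was not tested. Of its 858 interval reads, the 287 bp interval (chr16:85798410-85798696) had 54 and 6 in the C57BL/6J pair, 36 and 32 in the ApoE-/- chow pair and 90 and 98 in the high-fat pair. The 1912 bp interval (chr16:85800324-85802235), with 58.2% of the reads, differed: it stood at 93.0 and 34.5 CPM, 67.0 and 53.0, and 49.9 and 90.03, so high-fat 1 was below both ApoE-/- chow libraries. The 257 bp interval had 5 and 3, 3 and 5, and 22 and 5 reads.

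Promoter stretches of Adamts1 and Adamts3 are shown because these hosts gave the call that hung on 1 library and the smallest p. Of the 27 members 19 have a start in the RefSeq promoter table (GRCm38.p6). Each line gives the 250 bases before the start in that table, 5′ to 3′ on the gene's strand, with capitals for the TATA motif, TATAAA, and for the GC box, GGGCGG, each on either strand; they do not overlap here. The Adamts1 stretch begins just outside the gene bounds used here, while that of Adamts3 lies inside them (the gene ends at chr5:89883668), so it is not upstream of the outermost annotated start.
Adamts1, chr16:85803114-85803363, minus strand: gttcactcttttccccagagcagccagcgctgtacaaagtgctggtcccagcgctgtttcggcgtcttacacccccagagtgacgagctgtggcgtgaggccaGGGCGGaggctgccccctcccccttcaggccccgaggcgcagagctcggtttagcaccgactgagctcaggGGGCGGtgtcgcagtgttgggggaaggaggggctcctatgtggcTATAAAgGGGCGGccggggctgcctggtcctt
Adamts3, chr5:89883335-89883584, minus strand: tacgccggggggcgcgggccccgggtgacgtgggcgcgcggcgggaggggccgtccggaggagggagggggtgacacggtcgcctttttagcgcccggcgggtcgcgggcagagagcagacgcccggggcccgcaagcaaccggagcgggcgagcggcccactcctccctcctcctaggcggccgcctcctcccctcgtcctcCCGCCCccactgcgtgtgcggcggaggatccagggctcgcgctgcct
The Adamts1 stretch holds 3 GC boxes and 1 TATA motif, and the Adamts3 stretch 1 GC box. The GC box was found in 13 of the 19 members (68.4%), in 61.5% of the 4980 promoters of listed hosts and in 32.9% of all 27025. The TATA motif was in 3 of 19 (15.8%), 5.68% and 13.0%. The AP-1 motif TGANTCA was in 1 of 19 (5.26%, Mmp20), 3.76% and 6.87%. The members were near the other hosts for the GC box, and a match is only a description of the letters.

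Among the other secreted proteases, Adamts9, which cuts versican and aggrecan, stood at 79.7 and 92.8, 89.8 and 115, and 96.7 and 56.5 CPM, with high-fat 2 the lowest. Of its 18 junction reads 12 were in high-fat 1, on 5 different joins. Adamts12, a protease of cartilage oligomeric matrix protein, overlapped between all groups (33.8 to 72.3 CPM). Adamts13, the von Willebrand factor protease, Adamts15 and Adamts19 had 2 to 6 junction reads each and lay between 3.70 and 23.8 CPM. Adamts15 had a log2 fold change of -0.97 ± 0.77 (SE) in ApoE-/- chow against C57BL/6J, with the wild-type libraries at 9.49 and 23.8 CPM on either side of ApoE-/- chow 1 at 12.4 (edgeR, adjusted p = 1.00). It was -0.13 without C57BL/6J 2 and -1.88 without ApoE-/- chow 1. Adamts18 had 24 interval reads in all, 18 of them in C57BL/6J 2 and high-fat 2, and 1 junction read.

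Of the hosts without a protease domain, Adamtsl3 was the second most abundant member. It stood at 294 and 538 CPM in the C57BL/6J pair, 457 and 432 in the ApoE-/- chow pair and 344 and 360 in the high-fat pair. Both high-fat libraries were below both ApoE-/- chow libraries, and the wild-type pair spanned all of them. Its junction reads numbered 4 and 0, 1 and 4, and 10 and 12 over 8 joins, with both high-fat counts above the 4 chow counts. Per 100000 junction reads this was 15.03 and 0, 6.86 and 27.6, and 28.7 and 72.7, so high-fat 1 stood barely above ApoE-/- chow 2. The log2 fold change was 1.85 ± 1.39 (SE) against both chow groups, 1.56 ± 1.67 against ApoE-/- chow and 2.14 ± 1.79 against C57BL/6J (edgeR, adjusted p = 0.995, 1.00 and 0.999). The medians of all hosts tested by junction reads were 0.38, 0.19 and 0.33 in these comparisons. The number of hosts separated in this way by junction reads was not counted. The join chr7:82428334-82465690 (37357 bp) had 12 of the 31 reads and was seen in 4 libraries.

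Adamtsl2, a microfibril-associated regulator of TGF-beta, stood at 9.49 and 18.9, 8.29 and 15.7, and 8.01 and 5.73 CPM. Both high-fat libraries were the lowest of the 6, by a narrow margin over ApoE-/- chow 1, from 13 and 7 reads on a 187 bp interval. Its log2 fold change was -0.91 ± 0.68 (SE) against both chow groups, -0.78 ± 0.77 against ApoE-/- chow and -1.03 ± 0.77 against C57BL/6J (edgeR, adjusted p = 1.00, 0.999 and 1.00). Adamtsl1 lay between 14.2 and 17.3 CPM in all 6 libraries.

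The MMP hosts were Mmp14, Mmp15 and Mmp16, all membrane-type enzymes, Mmp28 (epilysin) and Mmp20, the tooth enamel protease. The gelatinases Mmp2 and Mmp9 and the macrophage elastase Mmp12 were not among the listed host genes, so they could not be analysed here. Mmp15 stood at 37.9 and 24.6, 31.8 and 28.4, and 33.3 and 25.4 CPM, overlapping between all groups. Yet its single join, chr8:95365314-95366422 (1109 bp), had 31 junction reads in high-fat 1 and 0 in the 5 other libraries. That was 0.0891% of the junction reads of high-fat 1 (exact 95% binomial interval 0.0605% to 0.126%). By the same kind of interval, 0 of 16511 in high-fat 2 allow a share of up to 0.0223% and 0 of 26605 in C57BL/6J 1 up to 0.0139%. In the ApoE-/- chow pair the upper ends were 0.0253% and 0.0254%. In C57BL/6J 2, 0 of 3706 allows up to 0.0995%, inside the interval of high-fat 1, so a difference from that library was not detectable. In the whole series 94 circRNAs had at least 10 junction reads confined to 1 library, 2 of them members (Mmp15 and the Adam17 join above), and 6 had 31 or more.

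Mmp16 had 1 and 8 interval reads in the C57BL/6J pair, 11 and 23 in the ApoE-/- chow pair and 13 and 6 in the high-fat pair. The log2 fold change was 1.66 ± 0.99 (SE) for ApoE-/- chow against C57BL/6J and -0.91 ± 0.93 for high-fat against ApoE-/- chow (edgeR, adjusted p = 1.00 and 0.999). With 1 library left out the former ran from 0.89 (without C57BL/6J 1) to 3.598 (without C57BL/6J 2) and the latter from -1.38 (without ApoE-/- chow 1) to -0.22 (without ApoE-/- chow 2). Both ApoE-/- chow libraries (7.60 and 17.2 CPM) were above both wild-type libraries (0.949 and 6.57), and high-fat libraries lay at 8.01 and 4.91. Mmp14, the membrane-type collagenase that activates proMmp2, was at 5.69 and 18.9, 8.98 and 8.95, and 11.7 and 9.82 CPM from a 204 bp interval. Mmp28 overlapped between groups (12.7 to 27.01 CPM), and 4 of its 5 junction reads were in ApoE-/- chow 2. Mmp20 had 18 interval reads in all, 9 of them in C57BL/6J 1.

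**Figure D5:**
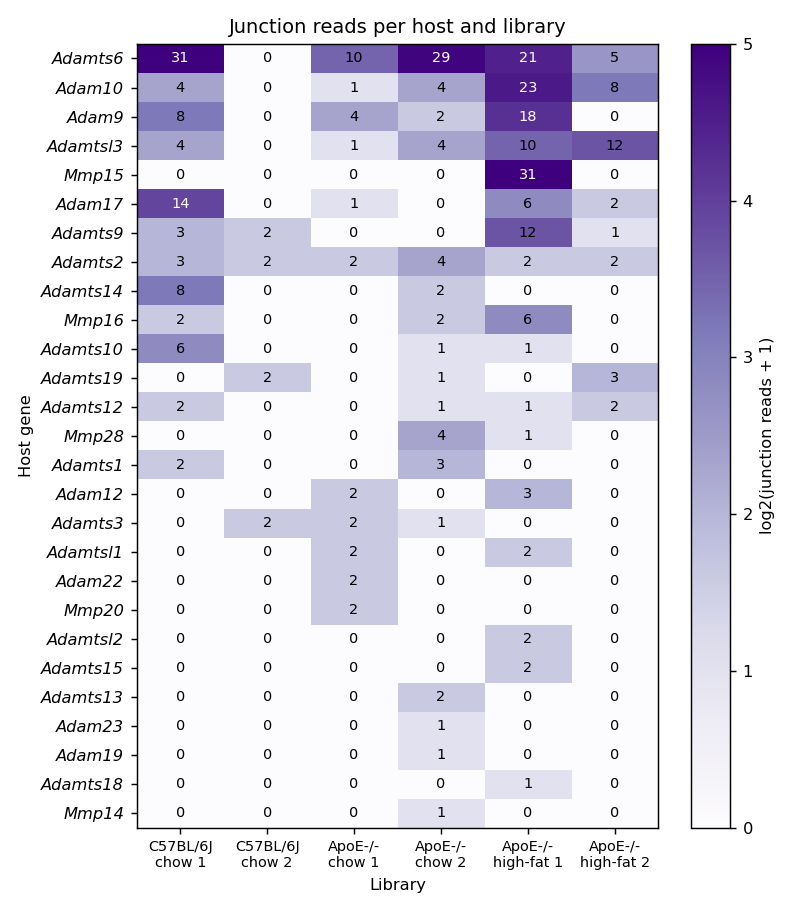
Junction reads of the 27 hosts (rows, ordered by total) in the 6 libraries (columns), with the count in each cell and colour on a log2 scale. Adamts6 has reads in 5 libraries, the 31 reads of Mmp15 lie in high-fat 1 alone, and C57BL/6J 2 has a read in 4 hosts.

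The genes that restrain, activate or are cut by these proteases were taken from 3 lists. Among the inhibitors, Timp2, Timp3 and Serpine2 were tested and 0 passed (edgeR). Timp2, a tissue inhibitor of MMPs, stood at 799 and 271 CPM in the C57BL/6J pair, 481 and 604 in the ApoE-/- chow pair and 346 and 1304 in the high-fat pair, so the highest and a low library belong to the same high-fat group. Timp3, which also inhibits ADAM17 and ADAMTS proteases, had 170 and 48.5, 136 and 150, and 117 and 264 CPM. Serpine2, a serine protease inhibitor, lay between 18.1 and 51.2 CPM over the 6 libraries. For high-fat against ApoE-/- chow the log2 values of Timp2, Timp3 and Serpine2 were 0.60 ± 0.57, 0.41 ± 0.54 and -0.54 ± 0.53 (SE; edgeR, adjusted p = 0.999 each).

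Of 18 activators 8 were tested and 0 passed (edgeR). In high-fat against ApoE-/- chow 6 were higher and 2 lower (median log2 0.23), and in ApoE-/- chow against C57BL/6J 2 were higher and 6 lower (median log2 -0.07, all hosts -0.02). Bsg (basigin, an inducer of MMPs) stood at 371 and 121 CPM in the C57BL/6J pair, 243 and 211 in the ApoE-/- chow pair and 266 and 334 in the high-fat pair. Of the proprotein convertases, which activate many of these proteases, Pcsk5 lay between 68.8 and 123 CPM over the 6 libraries, Pcsk6 between 41.1 and 56.0 and Pcsk7 between 69.0 and 109.

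Of 35 substrates 24 were tested and 0 passed (edgeR). In high-fat against ApoE-/- chow 22 were higher and 2 lower, with a median log2 of 0.42 (all hosts 0.03), and against C57BL/6J 21 were higher and 3 lower, with a median of 0.67 (all hosts -0.02). The list was led by Eln (elastin) at 6900 and 2807, 2658 and 2905, and 2492 and 4130 CPM and Col3a1 (fibrillar collagen) at 2690 and 1325, 2009 and 2227, and 2813 and 3148. Fn1 (fibronectin) followed with 1436 and 584, 1968 and 2047, and 1779 and 4079 CPM, and Col4a1 (basement membrane collagen) with 1170 and 429, 1275 and 986, and 971 and 1892. The summed level of the list was 17290 and 7679 CPM in the C57BL/6J pair, 12885 and 12723 in the ApoE-/- chow pair and 12850 and 21765 in the high-fat pair, highest in high-fat 2 and lowest in C57BL/6J 2, as the smooth muscle sum was. The part of the smooth muscle level in these counts was not tested.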

How the data were processed

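Total RNA of mouse aorta was sequenced in 6 libraries, 2 per group, from NEBNext Ultra libraries, per the labels' protocols, which state no strand setting. The submitters' processing notes name TopHat, HTSeq and the build GRCm38 (mm10). The caller of the joins is not stated there. Per the file headers, the deposited tables hold whole-number counts of interval reads and of junction reads, and the authors' RPM, which is the count scaled to 1000000 reads of the library, so library totals follow from both columns. A circRNA absent from a library's table was taken as 0. The 2133 circRNAs without a host symbol entered no host sum.

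Junction reads, and interval counts less junction reads, were summed per host. Every feature with at least 10 interval or 5 junction reads in at least 2 libraries was fitted with TMM scaling and robust settings in edgeR 4.0.16 under R 4.3.3, by its quasi-likelihood test, on all 6 libraries, with 3 residual degrees of freedom and Benjamini-Hochberg adjustment at 0.05. Standard errors were taken as the size of each log2 fold change over the square root of F. The script was run on simulated interval and junction counts, both with a spread close to that of the interval reads (common dispersion 0.141). The fitted dispersion was 0.567 for junction reads per host and 0.846 per circRNA, so the simulation does not cover the junction tests. DESeq2 1.42.0, other scalings and minimums, the replicate block and each left-out library were alternatives. The 4 comparisons share libraries. Named with values are members past the threshold, the 5 with the smallest p per comparison, up to 6 of highest mean CPM per family, those tested by junction reads, circRNAs seen in at least 3 libraries or among the 5 with most junction reads, and hosts with at least 10 junction reads in 1 library only. Members and lists were chosen with earlier results of these data known. A result of the inhibitor list is not reported here.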

Additional observations from a re-analysis of the deposited data

How the results depend on the processing

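Over 157 alternative settings the count of members called stayed at 0 in all 12 combinations of comparison and measure, except without C57BL/6J 1, where Adamts1 was called by interval reads for high-fat against C57BL/6J and against both chow groups (range over left-out libraries 0 to 1 each). Of 40 fold changes given for named members 29 kept their direction under every setting run. With all libraries kept, reversals were seen for Adam9 junction reads: in ApoE-/- chow against C57BL/6J from -0.03 to 0.26 with DESeq2, 0.0622 with DESeq2 size factors and 1.02 with the replicate block, and under the block also in high-fat against ApoE-/- chow (-0.51) and against both chow groups (-0.00638).

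Across left-out libraries the log2 fold change changed sign in 9 results. By junction reads in ApoE-/- chow against C57BL/6J it ran from -0.74 to 4.54 for Adam10, -0.60 to 0.29 for Adam9, -0.11 to 7.46 for Adamts6 and -0.74 to 4.54 for Adamtsl3. In high-fat against C57BL/6J it ran from -0.0452 to 1.43 for Adam9 and -1.27 to 6.04 for Adamts6, and against both chow groups from -0.0361 to 1.76 for Adam17 and -1.70 to 2.32 for Adamts6. By interval reads Adamts1 in high-fat against C57BL/6J ran from -0.0264 to 1.78.
Fits that leave C57BL/6J with 0 reads of a host give values that are no measure of size. The cause of these changes was not tested beyond the smaller number of samples.

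The labels give replicate numbers but no pairing; the correlation of replicate differences between groups over interval reads was 0.11, -0.13 and -0.00494, so the numbers were treated as names, and the replicate block called 0 members. Scaling to library totals moved the median log2 of all hosts by 0.20 for high-fat and 0.17 for ApoE-/- chow against C57BL/6J by interval reads, and by 0.72 for high-fat against ApoE-/- chow by junction reads; no named fold change reversed under it. With 364 junction reads in 6 libraries, most single joins could not be compared between groups.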
